A study of Mus musculus with 6 samples.

Results

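The cytosolic ribosomal protein genes encode the proteins of the ribosome that works in the cytoplasm. They were taken from the deposited table by symbol: names of the form Rpl or Rps followed by a number, with their lettered and l-suffixed forms, together with Rplp0, Rplp1, Rplp2 and Rpsa. The rule found 84 of the 24421 rows, 51 for the large subunit and 33 for the small subunit. Genes of mitochondrial ribosomes, which have other names, are not among them. Of the 84 genes, 79 reached 1 FPKM (fragments scaled by gene length and by the depth of the library) in at least 3 libraries and were tested, 46 of the large and all 33 of the small subunit. The 5 that were not tested are Rpl10l, Rpl26, Rpl30, Rpl34 and Rpl39l.

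The RNA came from preparations of endothelial cells isolated from C57BL/6 mouse retinas at postnatal day 7. The mutant group held 3 libraries from Anxa3 fl/fl pups that also carried Tie2-Cre, and the control group held 3 libraries from Anxa3 fl/fl pups without Cre, so both groups carried the floxed alleles and Cre itself cannot be told apart from the loss of annexin A3. Tie2-Cre is a recombinase driven by a promoter that is active in endothelial cells and in part of the blood lineage. How many pups went into a library is not given in the labels, so the tests see only the variation among libraries, which may be technical.

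A ribosome is built from ribosomal RNA and about one protein from each of these genes, and the cell makes the proteins in matched amounts. The small subunit holds the messenger RNA and decodes it, and the large subunit joins the amino acids and lets the new chain out through a tunnel. Many vertebrate ribosomal protein mRNAs begin with a C followed by a run of C and T (C and U in the RNA), the 5′ terminal oligopyrimidine or TOP start, through which mTOR and LARP1 set how well they are translated. At postnatal day 7 the vessel plexus of the mouse retina is still growing.

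To show that start, the 20 bases before and the 20 bases from the annotated transcription start are given for 6 members described in what follows, as RefSeq places it on GRCm38.p6, with the unbroken run of C and T from the start in capitals. The windows are chr2:180257359-180257398 on the plus strand for Rps21, chr3:90213629-90213668 on the minus strand for Rps27, chr11:114668560-114668599 on the plus strand for Rpl38, chr7:141447631-141447670 on the plus strand for Rplp2, chr4:86857348-86857387 on the minus strand for Rps6 and chr14:18270967-18271006 on the minus strand for Rpl15, which has the longest run of those found.
Rps21: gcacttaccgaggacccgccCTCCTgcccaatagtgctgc
Rps27: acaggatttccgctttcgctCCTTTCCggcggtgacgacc
Rpl38: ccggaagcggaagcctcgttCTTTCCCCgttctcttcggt
Rplp2: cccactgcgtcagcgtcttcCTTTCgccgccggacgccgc
Rps6: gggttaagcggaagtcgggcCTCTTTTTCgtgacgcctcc
Rpl15: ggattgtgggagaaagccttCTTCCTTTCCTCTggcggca
RefSeq's table of promoters held 63 of the 84 members. A C at the start followed by at least 4 bases of C or T stood in 13 of these 63 (20.6%), against 813 of the 27025 genes of the whole table (3.01%). In the 300 bases from 250 before to 50 after the start, the motif CCGGAAG was found on either strand in 26 members (41.3%, against 9.93% of all genes) and AAGATGG on either strand in 10 (15.9%, against 7.28%). CTTTCC on the gene's own strand was found in 25 (39.7%, against 16%), and TATAAA on that strand in 6 (9.52%, against 9.77%). CTCTTTC, on the gene's own strand and partly overlapping CTTTCC where both occur, was found in 13 members (20.6%, against 4.6%). These are counts of letters in a window. The annotated start can differ from the start used in the retina by a few bases.

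The libraries held 21380009 to 30895249 reads, recovered from the steps of the FPKM values, and 13332 to 13695 genes at 1 FPKM or more. Anxa3, the targeted gene, measured 9.78, 12.5 and 15.1 FPKM in mutant replicates 1, 2 and 3, against 18.7, 17.7 and 43.4 FPKM in control replicates 1, 2 and 3. Its log2 difference was -0.93 (SE 0.323), with an exact two-sided permutation p of 0.1, the smallest that 3 against 3 libraries allow, and a limma adjusted p of 0.9998. All 20 pan-endothelial markers were tested and none was at 0. Their FPKM summed to 764 to 1046 in mutants and to 716 to 1625 in controls, with control replicate 3 highest, and all 20 had a negative fitted difference, with a median of -0.16. RNA of other retinal cells was present too. The 18 photoreceptor markers, none at 0, summed to 5209 to 6762 FPKM in mutants and 4306 to 6191 in controls, and 15 of the 18 had a positive difference, with a median of 0.08. Sums of other marker lists were 513 to 541 in mutants and 441 to 575 in controls for 19 inner retinal neuron genes, and 463 to 565 against 526 to 548 for 12 Muller glia and astrocyte genes. They were 240 to 281 in mutants and 199 to 379 in controls for 13 pericyte and smooth muscle genes, 53.7 to 121 against 83.9 to 109 for 15 microglia and macrophage genes (12 of the 13 tested lower in mutants, median -0.23), and 122 to 134 against 124 to 148 for 12 progenitor and cell cycle genes. Of 7 erythroid genes, Hba-a1, Hba-a2, Hbb-bt and Hbb-bs were listed at 0 in every library. In such bulk libraries fewer cells of a type and less RNA per cell cannot be told apart, and the part of the cell mixture in the values that follow was not tested.

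The summed level of the ribosomal protein genes overlapped between mutants and controls. Together the 84 members summed to 9758, 10037 and 10493 FPKM in mutant replicates 1, 2 and 3, and to 10208, 9062 and 9039 FPKM in control replicates 1, 2 and 3. This was 3.23%, 3.26% and 3.46% of all FPKM in the mutants and 3.42%, 3.08% and 3.07% in the controls. Mutant replicate 3 was highest and control replicates 2 and 3 were lowest, but control replicate 1 lay above mutant replicates 1 and 2, so no level parted the groups. By subunit, the large-subunit sum averaged 5539 ± 192 FPKM in mutants and 5158 ± 320 FPKM in controls, and the small-subunit sum 4557 ± 203 FPKM in mutants and 4278 ± 350 FPKM in controls (SD, n = 3 each). The share of all FPKM averaged 3.32% ± 0.126 in mutants and 3.19% ± 0.200 in controls, a difference of 0.127 percentage points, less than the SD of the controls. That difference was 0.0549 without mutant replicate 3, 0.242 without control replicate 1, and 0.0714 and 0.0676 without control replicates 2 and 3.

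The level differed far more between members than between libraries. Averaged over the 6 libraries, 44 members were at 100 FPKM or more, 32 between 10 and 100, and 8 under 10. The median of these averages was 95.9 FPKM for the large subunit and 118 FPKM for the small. FPKM is scaled by gene length, so these levels can be set beside each other only within limits. Those limits are the length used for each gene and the near-identical gene copies described further on.

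**Figure D1:**
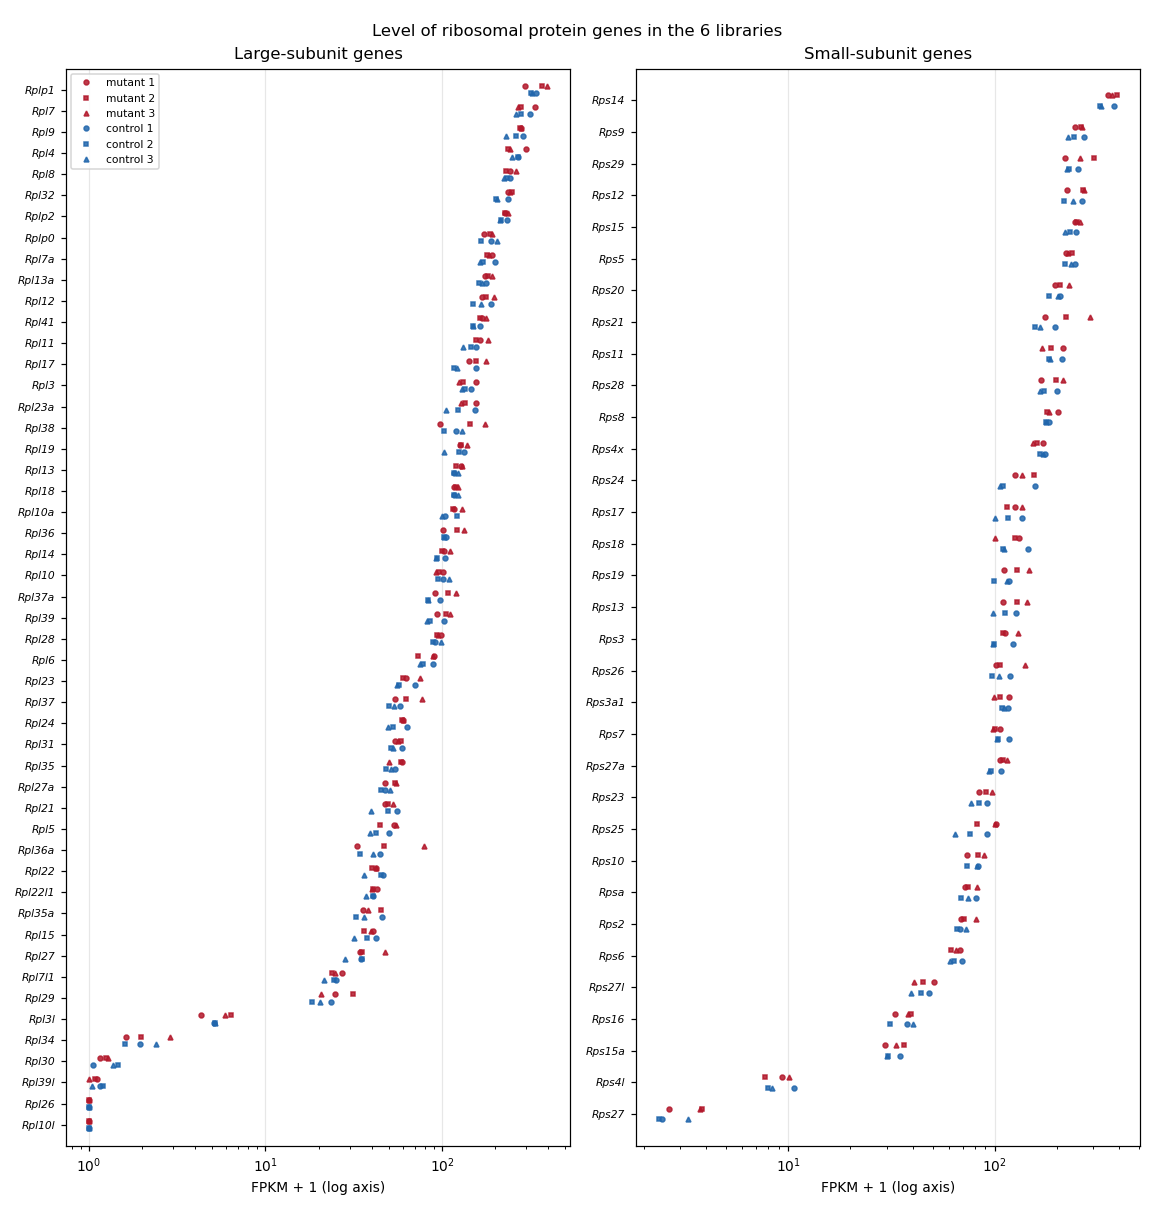
Each row is one of 83 of the 84 members, the large subunit on the left and the small subunit on the right, ordered by mean level. The horizontal log axis gives FPKM + 1 and each symbol is one library, mutants in red and controls in blue. Most members, 76 of 84 in all, average 10 FPKM or more with their 6 libraries close together, and Rps27, Rps4l, Rpl3l, Rpl34, Rpl30, Rpl39l, Rpl26 and Rpl10l lie apart at the low end.

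In the large subunit the 5 highest members were Rplp1, Rpl7, Rpl9, Rpl4 and Rpl8. Rplp1, an acidic protein of the stalk that recruits elongation factors, had 295, 366 and 395 FPKM in mutants and 338, 316 and 321 FPKM in controls. Rpl7 had 335, 279 and 267 FPKM in mutants, against 315, 280 and 262 FPKM in controls. Mutant replicate 1 was lowest of the 6 for Rplp1 and highest for Rpl7. Rpl9 had 278, 274 and 281 FPKM in mutants, against 288, 262 and 230 FPKM in controls. Rpl4, whose protein lines the exit tunnel, had 298, 237 and 241 FPKM in mutants, against 267, 269 and 247 FPKM in controls. Rpl8, which lies near the peptidyl transferase centre where amino acids are joined, had 241, 230 and 261 FPKM in mutants, against 241, 233 and 223 FPKM in controls. In all 5 genes the groups overlapped. Neighbours in this order did not differ beyond the spread between libraries.

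In the small subunit the 5 highest were Rps14, Rps9, Rps29, Rps12 and Rps15. Rps14, a protein of the platform where the mRNA leaves, had 350, 390 and 367 FPKM in mutants and 377, 321 and 326 FPKM in controls. Its levels stood above those of the other 4, whose averages lay from 241 to 251 FPKM. Rps9 had 243, 261 and 264 FPKM in mutants, against 270, 240 and 225 FPKM in controls. Rps29, a small zinc-binding protein of the head, had 218, 302 and 256 FPKM in mutants, against 251, 228 and 223 FPKM in controls. Rps12, a protein of the beak, had 223, 267 and 268 FPKM in mutants, against 263, 215 and 239 FPKM in controls. Rps15, in the head near the decoding site, had 244, 250 and 257 FPKM in mutants, against 245, 231 and 217 FPKM in controls. Each gene had a control library above at least 1 mutant library.

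At the low end, a few genes whose products every ribosome carries were nearly absent from the table. Rpl26, an exit tunnel protein, was listed at 0 in all 6 libraries. Rpl30 had 0.152, 0.257 and 0.287 FPKM in mutants and 0.0518, 0.462 and 0.370 FPKM in controls, from 1 to 7 reads per library. Rpl34 had 0.620, 0.979 and 1.88 FPKM in mutants and 0.940, 0.600 and 1.40 FPKM in controls, from 9 to 36 reads. Rps27, a zinc-binding protein of the small subunit, had 1.65, 2.85 and 2.75 FPKM in mutants and 1.47, 1.37 and 2.28 FPKM in controls, from 19 to 51 reads, and was the lowest of the small subunit. The next lowest there were Rps4l, given with the paralogues, and Rps15a, with 28.6, 35.5 and 32.5 FPKM in mutants and 33.6, 29.5 and 29.2 FPKM in controls. Rps15a held 3088 to 5670 reads per library but was scaled by a recovered length of 5134 bases. Rps29, among the 5 highest, held 1788 to 3671 reads at a length of 390 bases. Each of Rpl26, Rpl30, Rpl34 and Rps27 had other annotated transcripts nearly identical to it: 4 genes for Rpl26, 10 for Rpl30, 5 for Rpl34 and 2 for Rps27 matched at least 90% of the coding sequence at 97% identity or more. How the authors assigned reads that fit several places is not given in the sources used here, so the levels of these genes are uncertain.

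Such copies were common among the members, which are known for their many processed pseudogenes. Of the 83 members with an annotated coding sequence, 70 had at least 1 near-identical copy in the annotation. The median level was 191 FPKM for the 13 members with no copy, 112 FPKM for the 30 with 1 to 3 copies, 104 FPKM for the 25 with 4 to 6 copies and 86.6 FPKM for the 15 with 7 or more. Within each class the levels ran widely, from 0.102 to 355 FPKM among members with no copy and from 0.263 to 246 FPKM among those with 7 or more. Across 78 tested members, mean level and number of copies had a Spearman rho of only -0.14. Rpl4, Rpl8, Rps14 and Rps21 had no such copy, so their values rest on sequence of their own by this measure. The exons of 38 members overlapped those of another annotated gene, 27 on the same strand, mostly small nucleolar RNAs in the gene, and 18 on the opposite strand. Whether the authors counted by strand is not given, so reads of a gene and of its antisense neighbour cannot be told apart.

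Paralogues, second genes for a ribosomal protein that in mammals are often used in particular tissues, made up 7 of the 84 rows. For 2 of them the level overlapped or passed that of the parent gene. Rps27l, a p53-regulated relative of Rps27, had 49.8, 44.1 and 39.8 FPKM in mutants and 47.0, 42.8 and 38.5 FPKM in controls. In every library this was above Rps27, by 14.5 to 30.2 times in mutants and 16.9 to 32.1 times in controls. These ratios rest on 19 to 51 reads of Rps27 per library, and the level of Rps27 is uncertain because of its near-identical copies. Rpl22l1, the relative of Rpl22, had 42.1, 39.5 and 38.9 FPKM in mutants and 39.6, 39.5 and 36.2 FPKM in controls. Rpl22 itself had 41.4, 39.4 and 41.5 FPKM in mutants and 45.1, 44.0 and 35.1 FPKM in controls, so the levels of the 2 genes overlapped.

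The other paralogues were far below their parents. Rpl7l1 had 26.1, 22.9 and 23.7 FPKM in mutants and 24.2, 23.4 and 20.6 FPKM in controls, and Rpl7 was 11.2 to 12.8 times higher in mutants and 11.98 to 13.0 times higher in controls. Rpl3l, in mice a gene of heart and skeletal muscle, had 3.33, 5.36 and 4.91 FPKM in mutants and 4.14, 4.20 and 4.19 FPKM in controls. Its parent Rpl3, next to the peptidyl transferase centre, had 155, 131 and 124 FPKM in mutants and 146, 133 and 128 FPKM in controls. Rps4l, annotated as a transcribed processed pseudogene, had 8.38, 6.69 and 9.09 FPKM in mutants and 9.64, 6.98 and 7.35 FPKM in controls, while Rps4x had 170, 158 and 152 FPKM in mutants and 175, 164 and 170 FPKM in controls. Rpl39l, in mice a gene of male germ cells, had 0.118, 0.0798 and 0 FPKM in mutants and 0.161, 0.205 and 0.0480 FPKM in controls, from 0 to 4 reads. Rpl39, whose protein lines the exit tunnel, had 93.3, 104 and 110 FPKM in mutants and 101, 84.9 and 81.4 FPKM in controls. Rpl10l, in mice a testis gene, was listed at 0 in every library, and Rpl10 had 101, 95.8 and 91.5 FPKM in mutants and 100, 93.6 and 109 FPKM in controls. Of the 5 paralogues that were tested, 5 had a positive fitted difference between mutants and controls, with a median of 0.06 on the log2 scale, and 0 passed the test.

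**Figure D2:**
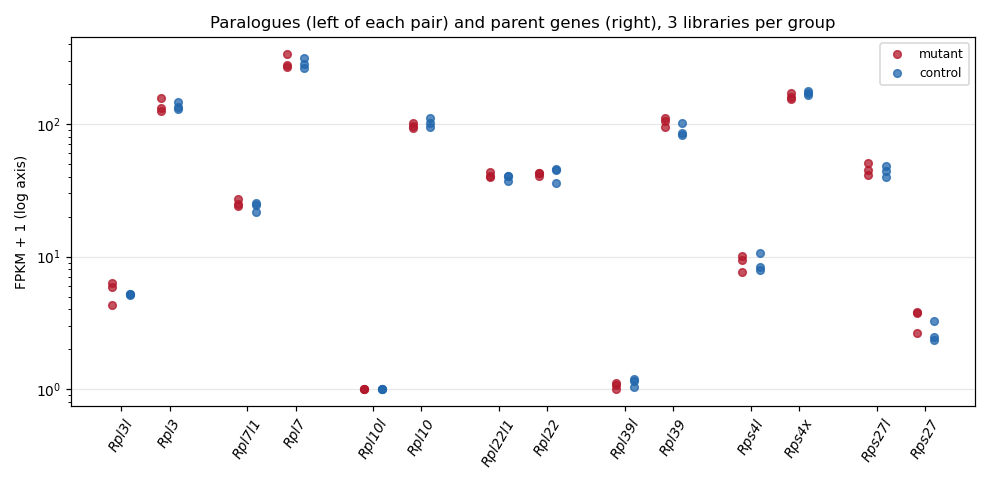
Each pair on the horizontal axis is a paralogue on the left and its parent gene on the right, and the vertical log axis gives FPKM + 1 with one point per library, mutants in red and controls in blue. Rps27l lies above Rps27, whose level is uncertain because of its near-identical copies. Rpl22l1 lies level with Rpl22, while the other 5 paralogues lie below their parents in every library.

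The letters show how far the members of a pair can be told apart by their reads. The coding sequences of Rps27l and Rps27 and of Rpl39l and Rpl39, from GENCODE M21 on GRCm38, are given with the bases that differ within each pair in capitals. The genes are Rps27l (plus strand, chromosome 9, 66946086 to 66949516), Rps27 (minus strand, chromosome 3, 90212522 to 90213651), Rpl39l (plus strand, chromosome 16, 10170226 to 10174911) and Rpl39 (minus strand, chromosome X, 37082520 to 37085402).
Rps27l: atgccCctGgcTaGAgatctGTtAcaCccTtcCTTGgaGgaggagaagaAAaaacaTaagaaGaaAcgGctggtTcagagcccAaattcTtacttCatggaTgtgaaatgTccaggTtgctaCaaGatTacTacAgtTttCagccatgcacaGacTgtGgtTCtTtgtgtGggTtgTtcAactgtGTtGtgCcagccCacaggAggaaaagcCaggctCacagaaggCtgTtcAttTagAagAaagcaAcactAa
Rps27: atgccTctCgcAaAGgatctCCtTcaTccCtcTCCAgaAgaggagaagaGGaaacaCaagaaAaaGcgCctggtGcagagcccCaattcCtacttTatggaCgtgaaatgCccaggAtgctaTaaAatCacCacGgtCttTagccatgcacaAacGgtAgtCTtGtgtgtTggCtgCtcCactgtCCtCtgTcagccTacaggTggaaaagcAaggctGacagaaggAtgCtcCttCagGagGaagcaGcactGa
Rpl39l: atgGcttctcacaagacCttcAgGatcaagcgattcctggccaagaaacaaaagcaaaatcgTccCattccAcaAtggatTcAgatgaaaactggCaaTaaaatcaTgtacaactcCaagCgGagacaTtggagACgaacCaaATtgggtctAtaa
Rpl39: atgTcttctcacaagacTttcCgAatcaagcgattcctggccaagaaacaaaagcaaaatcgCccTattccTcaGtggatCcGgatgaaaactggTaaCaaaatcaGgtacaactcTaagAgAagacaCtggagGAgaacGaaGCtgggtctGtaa
The Rps27 pair differs at 61 of 255 bases (76.1% identity), spread along the whole sequence, and the Rpl39 pair at 23 of 156 bases (85.3%). Identity was 84.8% for Rpl10l and Rpl10, 73.2% for Rpl3l and Rpl3, 66.9% for Rpl22l1 and Rpl22, and 50.3% for Rpl7l1 and Rpl7. Each of these paralogues thus lies well under the 97% identity used here for a near-identical copy of its parent. The near-identical copies of Rps27 described above were not part of this comparison.

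Between mutants and controls no ribosomal protein gene passed the test. With limma on log2(FPKM + 1), adjusted over all 13622 tested genes, 0 of the 79 tested members were called at an adjusted p of 0.05, and 0% of all tested genes were. At an unadjusted p under 0.05, 0 members were found, against 1.21% of all tested genes, or 0.896% counting only those higher in mutants. Limma voom on the recovered reads also called 0 members, and 0 at an unadjusted p under 0.05. The smallest p was that of Rpl37a, a small zinc-binding protein of the large subunit, which had 90.0, 106 and 120 FPKM in mutants and 95.9, 81.9 and 82.6 FPKM in controls. Its log2 difference was 0.27 (SE 0.132), or 0.18 without mutant replicate 3, with an unadjusted limma p of 0.0756 and an adjusted p of 0.9998.

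The direction of the fitted differences was uneven. It was above 0, that is higher in mutants, for 68 of the 79 tested members (86.1%), against 47.5% of all tested genes. Beside this, 0 of 20 endothelial, 15 of 18 photoreceptor and 1 of 13 microglia markers tested were higher in mutants, and their part in the members' direction was not tested. By replicate, the mean log2 of the endothelial markers was 4.78, 4.94 and 5.17 in mutants and 4.81, 4.71 and 5.84 in controls. Photoreceptor markers had 7.29, 6.91 and 6.98 against 7.16, 7.06 and 6.61. Microglia markers had 2.06, 2.75 and 3.04 against 2.90, 2.90 and 2.56. In each list the groups overlapped. Large-subunit genes were higher in mutants in 41 of 46 and small-subunit genes in 27 of 33. The median difference was 0.11 for the large subunit, 0.09 for the small and 0.10 for both, against -0.01 over all tested genes, on the log2(FPKM + 1) scale. Each gene's difference was small against its error: the median SE over the members was 0.125, and the highest bound of the 79 intervals of 95% was 0.99. The median of the 79 moved to 0.06 without mutant replicate 3 or without control replicate 3, and to 0.15 without control replicate 1. With all libraries scaled to one FPKM total it was 0.06, with 60 of 79 members higher, against a median of -0.04 and 34.3% higher over all tested genes.

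**Figure D3:**
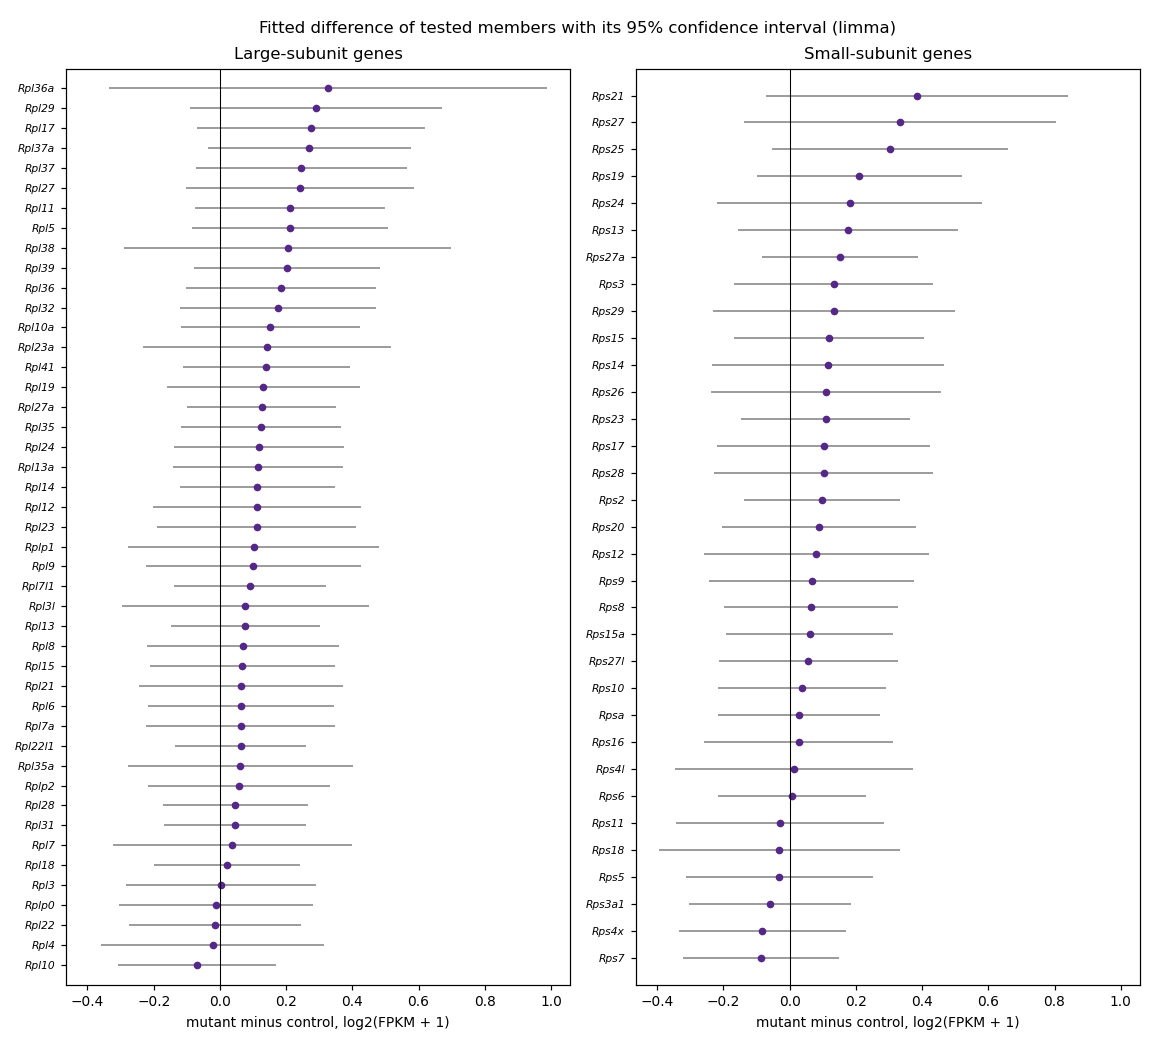
Each row is one of 78 of the 79 tested members, and the horizontal axis gives the limma difference, mutant minus control, on the log2(FPKM + 1) scale with its 95% confidence interval. All intervals shown include 0, and 68 of the 78 points lie to the right of it.

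Which libraries carried this was plain from the levels. Relative to each gene's mean over the 6 libraries, the median deviation of the 79 members was 0.01, 0.03 and 0.12 in mutant replicates 1, 2 and 3, and 0.08, -0.10 and -0.11 in control replicates 1, 2 and 3, in log2 units. Mutant replicate 3 held the highest value of 37 members, control replicate 1 that of 17 and mutant replicate 1 that of 14. The lowest value lay in control replicate 3 for 34 members and in control replicate 2 for 25. Control replicate 1 therefore stood with the mutants, and the median deviation of the small-subunit genes was lower in mutant replicate 1 (-0.05) than in control replicate 1 (0.09). Within groups the median pooled SD was 0.14 for the members and 0.16 for all tested genes. No set of genes matched to the members' level was compared.

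**Figure D4:**
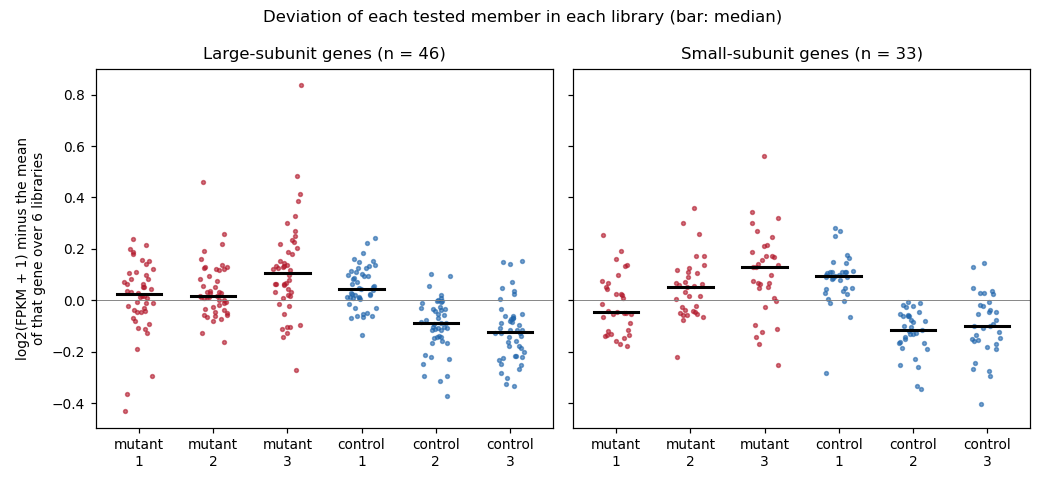
Each point is one tested member in one library, large-subunit genes on the left and small-subunit genes on the right, and the vertical axis gives its log2(FPKM + 1) minus the mean of that gene over 6 libraries. Black bars are medians. They are highest in mutant replicate 3 and lowest in control replicates 2 and 3, with control replicate 1 at or above mutant replicates 1 and 2.

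The labels also give each library a letter, whose meaning they do not state. Within letters A to C (mutant replicate 1 against control replicates 1 and 2), 51 of 79 members were higher in the mutant, with a median of 0.02, against 54.5% and a median of 0.02 over all tested genes. Within letters D to F (mutant replicates 2 and 3 against control replicate 3), 66 of 79 were higher, with a median of 0.20, against 50.7% and a median of 0.00 over all tested genes. In control replicate 3, where many members were lowest, the endothelial sum was the highest of the 6 libraries and the photoreceptor sum the lowest. The part of either in the members' values was not tested.

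In a single gene the groups did not overlap. Rpl41, the shortest protein of the ribosome, had 166, 164 and 176 FPKM in mutants and 163, 148 and 148 FPKM in controls. All 3 mutants lay above all 3 controls, though mutant replicate 2 exceeded control replicate 1 by little. Its log2 difference was 0.14 (SE 0.109). This was 1 of 79 members, against 2.79% of all tested genes with every mutant above every control. The opposite order was found in 0 members, against 1.56% of all tested genes.

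The largest positive difference on the log2(FPKM + 1) scale was that of Rps21, a small-subunit protein that in yeast takes part in the last steps of 18S rRNA processing. Its gene spans bases 180257377 to 180258445 of chromosome 2 (plus strand, GRCm38) and had 175, 221 and 289 FPKM in mutants, against 195, 155 and 165 FPKM in controls. Mutant replicate 3 stood highest, and control replicate 1 lay above mutant replicate 1. The means were 228 ± 57.6 FPKM in mutants and 172 ± 20.9 FPKM in controls (SD, n = 3 each), a log2 difference of 0.38 (SE 0.198). Without mutant replicate 3 it was 0.20. Rps27, whose levels are given among the low genes, followed with 0.33 (SE 0.204) from at most 51 reads per library, and stood above Rps21 with a pseudocount of 0.1 (0.48 against 0.39), with voom (0.54 against 0.39) and with library weights (0.64 against 0.47). Rpl36a had 31.8, 46.0 and 78.2 FPKM in mutants and 43.7, 33.2 and 39.6 FPKM in controls, a difference of 0.33 (SE 0.286). That value rested on mutant replicate 3, without which it was -0.01, and Rpl36a also had the widest range of the 79 genes, 2.46-fold between its highest and lowest library. Rps25, which binds viral internal ribosome entry sites, had 100, 80.8 and 99.4 FPKM in mutants and 90.5, 74.5 and 63.0 FPKM in controls, a difference of 0.30 (SE 0.154), and of 0.18 without control replicate 3. Rpl29 had 23.8, 30.4 and 19.6 FPKM in mutants and 22.5, 17.3 and 19.4 FPKM in controls, a difference of 0.29 (SE 0.165), and of 0.13 without mutant replicate 2. In each of these 5 genes the groups overlapped.

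Negative differences were smaller. Rps7 had 105, 99.6 and 96.5 FPKM in mutants and 116, 103 and 102 FPKM in controls, a difference of -0.09. Rps4x had a difference of -0.08, Rpl10 of -0.07 and Rps3a1 of -0.06. Rps3a1 had 116, 105 and 98.2 FPKM in mutants and 115, 107 and 110 FPKM in controls. The steadiest member was Rpl18, with 117, 120 and 122 FPKM in mutants and 116, 115 and 121 FPKM in controls, a range of 1.06-fold. The median range over the 79 members was 1.28-fold, and 69 of them stayed under 1.5-fold.

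Grouped by place in the ribosome, no group stood out by a passed test. Rpl5 and Rpl11, which bind 5S rRNA and, outside the ribosome, hold back Mdm2 and so release p53, both had a difference of 0.21. Rpl5 had 52.1, 43.3 and 53.6 FPKM in mutants and 49.0, 41.4 and 38.0 FPKM in controls, and Rpl11 had 163, 154 and 181 FPKM in mutants and 156, 146 and 130 FPKM in controls. In both genes the groups overlapped. The stalk and its base, Rplp0, Rplp1, Rplp2 and Rpl12, had a median of 0.08 with 3 of 4 higher in mutants. Rplp0, the scaffold of the stalk, had 173, 187 and 192 FPKM in mutants and 188, 166 and 203 FPKM in controls. Around the peptidyl transferase centre (Rpl3, Rpl8 and Rpl10) the median was 0.00, with 2 of 3 higher. Of 8 genes of the exit tunnel and its rim 7 were tested, with a median of 0.13 and 6 higher. In the small subunit, 7 proteins at the mRNA entry and exit had a median of 0.10 with 6 higher, and 11 proteins of the head and beak a median of 0.10 with 10 higher. None of the genes in these groups passed the test. Rps6, the target of the S6 kinases, had 67.0, 60.1 and 63.9 FPKM in mutants and 68.6, 62.3 and 59.4 FPKM in controls, a difference of 0.01.

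Members with and without such a C and T run at the annotated start were set side by side, with no test of their difference. As the start used can lie a few bases away, members without the run may also have a TOP start. Among the 13 with a C and at least 4 further bases of C or T, as in the sequences of Rps21, Rpl38 and Rps6, 12 were higher in mutants, with a median of 0.06 and a range from -0.03 to 0.38. Among 46 other tested members with a RefSeq promoter 39 were higher, with a median of 0.11 and a range from -0.09 to 0.33. Rpl38, a short large-subunit protein with a TOP start, had 96.9, 143 and 175 FPKM in mutants and 120, 102 and 129 FPKM in controls. Rplp2, a stalk protein with a TOP start, had 226, 226 and 234 FPKM in mutants and 232, 216 and 212 FPKM in controls. Rpl15, with the longest run, had 39.9, 35.3 and 38.7 FPKM in mutants and 41.4, 36.8 and 30.9 FPKM in controls. In all 3 genes the groups overlapped.

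Ribosomal protein genes are short, and other short genes leaned the same way. In length classes chosen after the values had been seen, 16 of 16 members of 327 to 499 bases were higher in mutants, with a median of 0.12, against 86 of 109 other tested genes of that length (78.9%), with a median of 0.21. From 500 to 749 bases, 24 of 27 members were higher with a median of 0.11, against 247 of 315 other genes (78.4%) with a median of 0.11. From 750 to 999 bases, 13 of 17 members were higher with a median of 0.08, against 304 of 447 other genes (68.0%) with a median of 0.07. Members of 1000 to 1999 bases were higher in 12 of 15 cases with a median of 0.06, against 1637 of 2749 other genes (59.5%) with a median of 0.03. At 2000 bases or more, 3 of 4 members were higher with a median of 0.08, against 3807 of 9340 other genes (40.8%) with a median of -0.02. Up to 999 bases the members' median thus lay at or near that of other genes of their length, apart from the shortest class, where it was lower. From 1000 bases up it lay above that of the other genes. The share higher in mutants was greater among members than among other genes in every class. Among all other tested genes under 1000 bases, 637 of 871 (73.1%) were higher in mutants, with a median of 0.10.

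**Figure D5:**
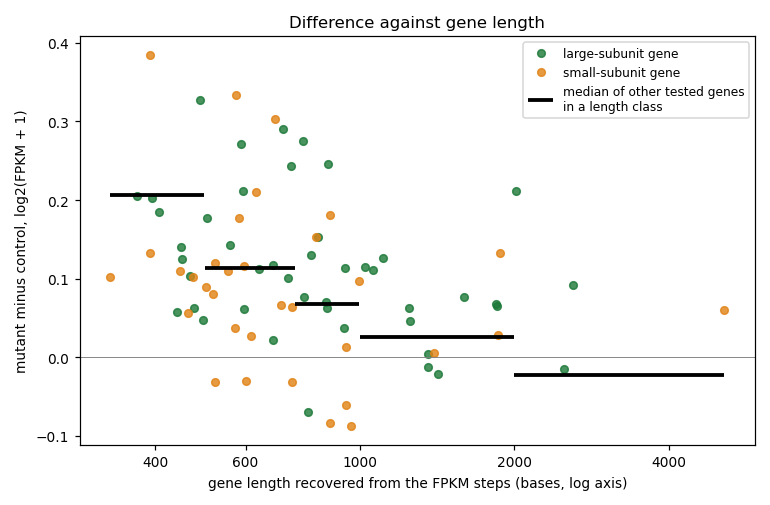
Each point is one of 78 of the tested members, green for the large and orange for the small subunit, with gene length in bases on a horizontal log axis and the mutant minus control difference on the log2(FPKM + 1) scale on the vertical axis. Black bars are medians of the other tested genes in each length class, from 0.21 for the shortest to -0.02 for the longest.

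The libraries in which these other short genes were high or low were largely those of the members. In the shortest class the median deviation of the 109 other genes was -0.02, 0.11 and 0.18 in mutant replicates 1, 2 and 3 and 0.01, -0.10 and -0.11 in control replicates 1, 2 and 3. That of the 16 members was -0.08, 0.09 and 0.19 in mutants and 0.02, -0.10 and -0.12 in controls. Across the 79 members, the difference and the length had a Spearman rho of -0.35, and across the other tested genes -0.25. These are descriptions over genes that share 6 libraries. What made short genes differ between the libraries was not tested.

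Genes that work with the ribosome were read from the same fit. Ribosomal components outside the naming rule were 5 rows, with Rps27rt listed at 0 and 4 tested. Rpl36al, a relative of Rpl36a, had 12.9, 13.5 and 14.1 FPKM in mutants and 11.4, 12.5 and 9.71 FPKM in controls, without overlap, and a difference of 0.25 (SE 0.113), or 0.16 without control replicate 3. Fau, which encodes the small-subunit protein eS30 fused to a ubiquitin-like part, had a difference of 0.08, and Gnb2l1, the gene of the scaffold protein RACK1, one of -0.01. Among 61 tested ribosome assembly factors 36 were higher and 25 lower in mutants, with a median of 0.02. Gnl3, the nucleolar GTPase nucleostemin, had 14.3, 15.7 and 16.2 FPKM in mutants and 12.6, 12.01 and 13.8 FPKM in controls, without overlap (difference 0.25, SE 0.0987). Its limma p was 0.0361 unadjusted and 0.9998 adjusted. Ebna1bp2, a factor for the large subunit, had 15.8, 15.8 and 17.8 FPKM in mutants and 15.3, 14.0 and 13.3 FPKM in controls, also without overlap (difference 0.20). Rpl36al, Gnl3 and Ebna1bp2 were named for being among the 2 smallest p of their lists. Of all tested genes, 2.79% had every mutant above every control. An unadjusted limma p under 0.05 was found for 1 of the 61 assembly factors, against 1.21% of all tested genes.

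Translation factors were divided between both directions. Of 35 tested initiation factors 11 were higher and 24 lower in mutants, with a median of -0.02. Pabpc1, the poly(A)-binding protein and itself a TOP gene, had 109, 83.6 and 84.8 FPKM in mutants and 106, 106 and 104 FPKM in controls, a difference of -0.19 (SE 0.125), and of -0.13 and -0.32 without mutant replicates 2 and 1. Eif2b4, a subunit of the exchange factor for eIF2, had 17.8, 17.4 and 17.5 FPKM in mutants and 15.8, 17.2 and 14.5 FPKM in controls, a difference of 0.14. Of 9 elongation factors 5 were higher and 4 lower, with a median of 0.05, among them Eif5a with -0.09 and Eef1d with 0.08. The 20 tested non-ribosomal TOP genes divided evenly, 10 higher and 10 lower, with a median of 0.00. Snhg1, a small nucleolar RNA host with a TOP start, had the next smallest p of that list after Pabpc1, with a difference of 0.14. Some of these genes stand in more than one list.

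A list of mTOR pathway and ribosomal S6 kinase family genes had 7 genes higher and 12 lower in mutants among 19 tested, with a median of -0.03. Eif4ebp2, a repressor of cap-dependent translation, had 17.8, 17.8 and 15.6 FPKM in mutants and 17.3, 21.4 and 23.6 FPKM in controls, a difference of -0.26 (SE 0.127), and of -0.17 without control replicate 3. Rps6ka3, the kinase RSK2, had a difference of -0.13. Of 10 tested p53 genes that respond to disturbed ribosome assembly, 3 were higher and 7 lower, with a median of -0.04. Cdkn1a, the cell cycle inhibitor p21, had 9.23, 7.70 and 8.62 FPKM in mutants and 7.84, 9.95 and 15.9 FPKM in controls, with control replicate 3 highest, and a difference of -0.31 (SE 0.222), which was -0.05 without that library and -0.52 without control replicate 1. Trp53 had 19.4, 18.5 and 17.1 FPKM in mutants and 20.3, 18.9 and 21.2 FPKM in controls, a difference of -0.13. In each of these lists 0 genes passed the test, and their difference from the ribosomal protein genes was not tested.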

How the data were processed

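The deposited table held the authors' FPKM for 24421 gene symbols in 6 libraries, and 0 columns were left unmapped. Build mm10 and the tools Cufflinks 2.2.1, DESeq2, bedtools 2.17.0 and STAR 2.5.0b are named, without roles, per the submitters' processing notes. Annotation and strand use are not given in those sources. Per the labels' protocols the kit was TruSeq RNA v2.

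Low FPKM values step by the worth of 1 read, from which depth, reads and gene length were recovered. Depth was first taken from miRNA genes, most but not all of which came out whole at that depth. These were 361 of 369 above 0 in mutant replicate 1 and 464 of 485 in control replicate 1. The depth was then refined on genes with more reads whose length gave whole reads in every library. All 16491 rows above 0 in every library came out whole (within 0.002 reads, up to 0.05 for high values), and 4518 rows were at 0 throughout. Differences were tested with limma 3.58.1 (R 4.3.3) on log2(FPKM + 1), two-sided, for genes with at least 1 FPKM in 3 libraries, with a trended prior and Benjamini-Hochberg adjustment. On this scale the change of a low gene is understated. A count test had been planned for counts, but the values are FPKM. The fit was tested on simulated data. Libraries of one group differed beyond sampling noise in each pair (chi-square per degree of freedom 15.4 to 74.8).

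Positions and coding sequences came from GENCODE M21, near-identical copies from blastn 2.17.0 (at least 97% identity over 90% of the coding sequence). The members and all lists were chosen with earlier results of these data known. Named genes were Anxa3, the 5 highest and 3 lowest members of each subunit, all paralogues with parents, the 5 largest differences in each direction, members past an unadjusted p of 0.05 (0 were) and the 2 smallest p of each related list. Rpl5, Rpl11, Rpl18, Rpl37a, Rpl38, Rpl41, Rpl15, Rps6, Rplp0, Rplp2 and Gnb2l1 were chosen after their values were seen. Genes left unnamed under these rules are not reported here by name. Alternatives were another pseudocount (0.1), other filters (none, or 5 FPKM), equal FPKM totals, median-of-ratios and quantile scaling, blocks for replicate number and letter, library weights, limma voom on recovered reads and the omission of each library.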

Additional observations from a re-analysis of the deposited data

How the results depend on the processing

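The count of 0 ribosomal protein genes and 0 genes called held under every alternative but library weights (limma arrayWeights), where 1 member, Rps27 (log2 difference 0.64, adjusted p = 0.0337), and 145 genes (1.06% of 13622) passed; Gnl3 was among them (0.34, adjusted p = 0.0356), and Eef1d turned to -0.017. These weights, estimated from 6 libraries with a convergence warning, were lowest in control replicate 3 (0.260) and highest in mutant replicate 2 (7.00), and under them an unadjusted p under 0.05 was found for 27 of 79 members (34.2%) and for 4069 of all tested genes (29.9%). The median over the members was positive under all alternatives, from 0.06 to 0.15, with 60 to 72 of them higher in mutants. Leaving out each library in turn, Rpl36a ranged from -0.011 to 0.62, the large-subunit median from 0.07 to 0.17 and the small-subunit median from 0.05 to 0.14; Anxa3 stayed negative, from -1.15 to -0.53, the last without control replicate 3. Deviations of same-numbered libraries correlated at 0.249, -0.151 and 0.391 for numbers 1, 2 and 3, against -0.352 to 0.231 for differently numbered ones. These values do not settle whether libraries were paired by number. With the replicate block 0 genes passed, and 296 had an unadjusted p under 0.05, against 165 without it. The letter block gave 927 such genes (6.81%) and 4 such members (5.06%), all 4 higher in mutants, with 69 of 79 higher, and 0 genes passed. With 3 libraries a group and a median SE of 0.125 per member, differences of the size of the members' median are not detectable gene by gene, and counts of 0 to 51 reads make Rpl30, Rpl34, Rpl39l and Rps27 imprecise.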
